A study of Homo sapiens with 16 samples.

Results

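Cells of RT112, which derives from a bladder cancer and is luminal, were compared with those of SCaBER, a bladder cancer line that is basal, after both had been transfected with siRNA against FOXA1. The comparison took in every library labelled siFOXA1, 4 of RT112 and 4 of SCaBER, which makes 8 of the 16 libraries of the series. The question was which luminal and basal differences between the lines remained after FOXA1 siRNA in both. In both lines FOXA1 was targeted with siFOXA1.1 or with siFOXA1.2 (2 siRNAs, 10 nM), each of which had 2 libraries per line, 1 from each labelled experiment batch (batch replicates 1 and 2). The other 8 libraries, the background here, hold the same lines, batches and numbers with siControl.1 and siControl.2. RNA was measured as 3′ end reads counted per gene. No untransfected cells were analysed here. Each subtype was represented by 1 line, and RT112 was grown in RPMI and SCaBER in DMEM, so line, subtype and medium cannot be told apart.

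FOXA1 is a forkhead transcription factor that can bind closed chromatin and opens it for other factors. In the urothelium it works beside GATA3 and PPARG in the programme of the differentiated luminal cell, which makes uroplakins, the plaque proteins of the bladder surface, and the simple keratins. The basal programme is marked by stratified keratins, laminin and hemidesmosome proteins and the EGF receptor, and tumours of the basal/squamous type carry much of it while FOXA1 and GATA3 are low.

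The 8 libraries held 5280402 to 7322004 counts, and 12796 to 13506 genes had more than 3 counts in each. Luminal marker genes summed to 5388 to 6978 counts per 1000000 of the library total (CPM) in RT112 and to 762 to 1116 CPM in SCaBER (14 genes), and basal marker genes to 944 to 1119 CPM and 4726 to 7726 CPM (10 genes), so the labels of both lines matched their markers. KRT20, a late luminal keratin, had 5 counts at most in any of the 8 libraries, and the uroplakin UPK3A had 0 in all 8. The leukocyte gene PTPRC and the endothelial gene VWF were at 0 in all 8 libraries. The 20 markers of other cell types summed to 106 to 153 CPM in RT112 and 13.7 to 54.5 CPM in SCaBER, with 11 and 13 of the 20 at 0. The stromal genes LUM (91.5 ± 47.3 against 12.6 ± 7.62 CPM, SD, n = 4 each) and COL1A1 (33.5 ± 25.2 against 9.32 ± 8.06 CPM) made up most of that sum, and their part in the results was not tested. Mitochondrial genes took 23.5% ± 4.17 of the counts in RT112 and 11.7% ± 0.549 in SCaBER (SD, n = 4 each; two-sided exact permutation p = 0.0286, the smallest that 4 against 4 libraries can give). With control siRNA the shares were 19.6% ± 1.39 and 10.7% ± 0.529. Leaving the mitochondrial genes out changed no named call. The TMM factors of the fit already set extreme genes aside, so this step could hardly have changed one. The part of this share in the results was not tested otherwise.

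FOXA1 (ENSG00000129514, chromosome 14, 37589552 to 37595249 in GRCh38.p14) remained at different levels in the 2 lines after FOXA1 siRNA. In RT112 it had 1.32 and 3.24 CPM (9 and 22 counts) with siFOXA1.1 and 9.18 and 16.0 CPM (63 and 117 counts) with siFOXA1.2. In SCaBER it had 0 and 0.434 CPM (0 and 3 counts) with siFOXA1.1 and 0 and 0.951 CPM (0 and 6 counts) with siFOXA1.2. Every RT112 library lay above every SCaBER library, and within RT112 both siFOXA1.1 libraries lay below both siFOXA1.2 libraries. The means were 7.43 ± 6.61 CPM in RT112 and 0.346 ± 0.452 CPM in SCaBER (SD, n = 4 each; two-sided exact permutation p = 0.0286). With control siRNA they were 27.8 ± 6.98 and 1.39 ± 0.971 CPM (SD, n = 4 each). The SCaBER control libraries had 0.499 to 2.43 CPM (3 to 15 counts), a range that overlaps the SCaBER libraries with FOXA1 siRNA. Whether FOXA1 was lowered within SCaBER was not tested. FOXA1 did not pass the filter on low counts in the comparison of the lines after FOXA1 siRNA. Without the filter the log2 difference (RT112 minus SCaBER) was 4.36 (SE 1.15, edgeR adjusted p = 0.00643), and in the control libraries 4.34 (SE 0.45). With siFOXA1.1 the difference was 3.32 (SE 1.43, adjusted p = 0.075) and with siFOXA1.2 it was 4.70 (SE 1.37, adjusted p = 0.00449). The change of the line difference from control to FOXA1 siRNA was 0.01 (SE 0.99, adjusted p = 1.00). The few counts in SCaBER leave this ratio uncertain.

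**Figure D1:**
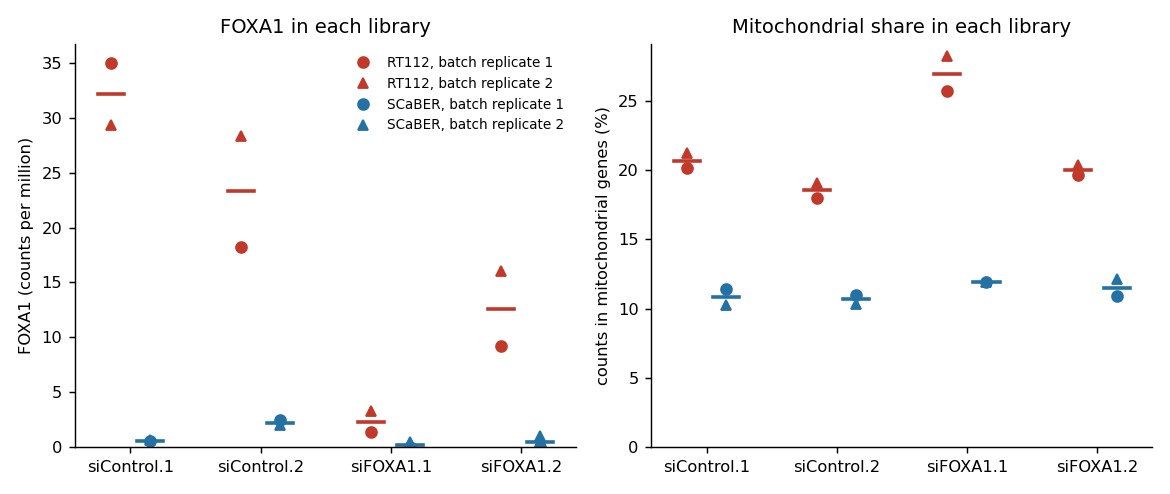
FOXA1 in CPM (left) and the percentage of counts in mitochondrial genes (right) for each of the 16 libraries, by siRNA and cell line, with 1 marker per library. After siFOXA1, FOXA1 lay at 1.32 to 16.0 CPM in RT112 and at 0 to 0.951 CPM in SCaBER, and the mitochondrial share averaged 23.5% and 11.7%.

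Of 12104 genes tested after FOXA1 siRNA, 3368 (27.8%) differed between the lines at an adjusted p under 0.05 (edgeR quasi-likelihood test, Benjamini-Hochberg adjustment, used for every adjusted p here). RT112 was higher for 1568 (13%) and lower for 1800 (14.9%), and 2802 of the 3368 differed at least 2-fold. With control siRNA 5341 of 12309 genes (43.4%) were called, 2612 higher (21.2%) and 2729 lower (22.2%) in RT112. For 3890 of the 12104 genes (32.1%) the 4 libraries of 1 line all lay above the 4 of the other after FOXA1 siRNA. On log2(TPM + 1) of the deposited TPM, limma called 4598 genes after FOXA1 siRNA, 943 higher and 3655 lower, where the median of all genes was -0.47, and 1619 higher and 4367 lower with control siRNA. These TPM were not rescaled between libraries. After FOXA1 siRNA mitochondrial genes held 59.3% ± 5.97 of TPM in RT112 and 34.5% ± 1.3 in SCaBER (SD, n = 4 each). The part of that in the limma counts was not tested. The shares called, by direction, are the background for the gene lists that follow. Among the genes named below, the calls of CAMK2D, CLDN1, FOSL2, LCN2, NPAS2, RAB25, RPA2, RRM1 and SLBP were lost when 1 or another library was left out.

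Most of the differences seen after FOXA1 siRNA were already present with control siRNA. Among the 11664 genes tested in both comparisons, 5072 were called with control siRNA and 3268 after FOXA1 siRNA, and 2906 were called in the same direction in both. These 2906 were 57.3% of the genes called with control siRNA and 88.9% of those called after FOXA1 siRNA. A call was kept for 1332 of 2447 genes higher in RT112 with control siRNA (54.4%) and for 1574 of 2625 genes lower in it (60%). Just 1 gene was called in opposite directions. A further 361 genes were called after FOXA1 siRNA only and 2165 with control siRNA only. A lost call is not a changed difference. The test of a change of the line difference called 0 of 13701 genes (0%) when both siRNAs of a target were pooled (edgeR). There 737 genes had an unadjusted p under 0.05 and DESeq2 called 21. The pooled test counts the difference between siRNAs as spread, so it does not show that no gene changed. Against control siRNA, siFOXA1.1 alone gave 400 of 15464 genes and siFOXA1.2 alone 7. The 4 siFOXA1 libraries of a line came from siRNAs with different effects, as described further on, and with the siRNA as a term in the model of each comparison 69.9% of the control calls were kept. Within batch replicate 1 alone 32.5% were kept and within batch replicate 2 alone 27.1%, with 2 libraries per line and target.

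**Figure D2:**
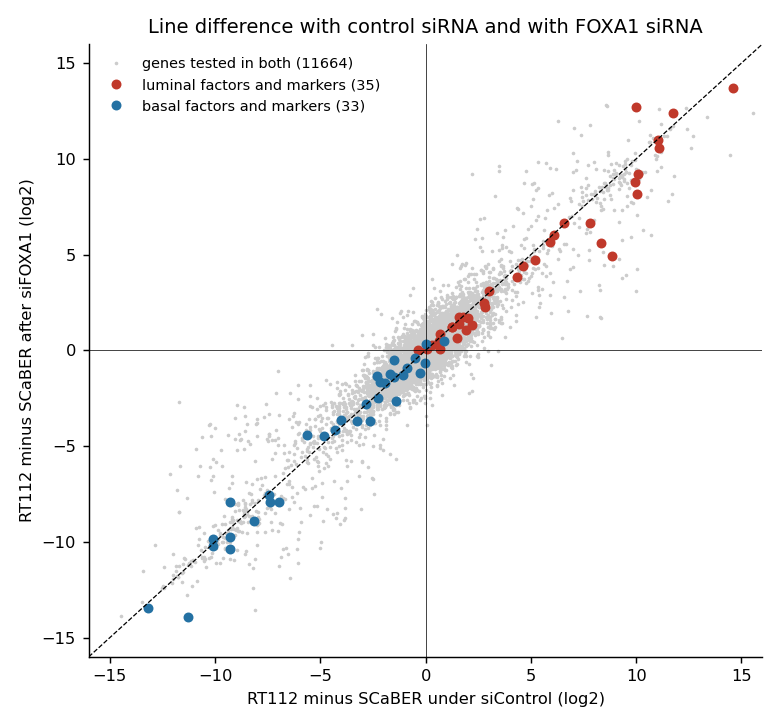
Line difference (RT112 minus SCaBER, log2) of the 11664 genes tested in both comparisons, with control siRNA on the horizontal axis and with FOXA1 siRNA on the vertical axis, 1 point per gene, with genes of the luminal and basal lists in colour. The 2906 genes called in the same direction in both lie to the upper right and lower left of the origin.

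Most of the luminal transcription factors tested remained higher in RT112. Of 15 factors on the list, 14 were tested, 9 were higher in RT112, 0 were lower and the median difference was 1.53 on the log2 scale, against 13% higher, 14.9% lower and a median of 0.00 over all genes tested. With control siRNA 12 of 14 were higher and the median was 1.95. GRHL3, not tested, had 12 counts at most. None of the 15 factors passed the test of a change of the line difference with either siRNA. GATA3, a zinc finger factor that defines luminal urothelium, had 219, 235, 397 and 333 CPM in RT112 (siFOXA1.1 batch replicates 1 and 2, then siFOXA1.2 batch replicates 1 and 2, the order of all values that follow). In SCaBER it had 16.1, 11.7, 8.48 and 9.19 CPM. The libraries of the lines were far apart, with RT112 26.6-fold higher (log2 4.73, SE 0.30, adjusted p = 2.53e-06). With control siRNA GATA3 was 36.6-fold higher.

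PPARG, the nuclear receptor that drives uroplakin and lipid genes in luminal cells, had 38.1, 49.9, 76.2 and 67.2 CPM in RT112 and 15.5, 20, 15.4 and 21.2 CPM in SCaBER. The lines did not overlap, and PPARG was 3.29-fold higher in RT112 (log2 1.72, SE 0.28, adjusted p = 0.000817). Its partner RXRA was higher by 1.25 (SE 0.27, adjusted p = 0.00485). GRHL1, a grainyhead factor of epithelial barrier genes, was higher by 3.12 (SE 0.33), and HES1, a Notch target and repressor, by 2.47 (SE 0.39). NPAS2, a clock factor, was higher by 1.68 (SE 0.53, adjusted p = 0.0341). TBX2, a T-box factor, had 23.3 to 48.8 CPM in RT112 and 0 counts in all 4 SCaBER libraries. With SCaBER set at the floor of 3 counts per library, the RT112 mean was at least 78.2-fold higher. The floor was 0.434 to 0.568 CPM in SCaBER and 0.41 to 0.442 CPM in RT112. Every bound given as at least a fold divides the mean CPM of 1 line by the mean floor of the other, so single libraries can lie below it. ZBTB7C, also at 0 counts in SCaBER, was at least 16.6-fold higher. KLF5, TBX3 and FOXQ1 did not pass the test, with KLF5 at 1.08 (SE 0.43, adjusted p = 0.0841), TBX3 at 0.65 (SE 0.26, adjusted p = 0.0876) and FOXQ1 at 1.33 (SE 0.60, adjusted p = 0.127).

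ELF3, an epithelial ETS factor, differed between the siRNAs. RT112 had 331, 246, 181 and 151 CPM and SCaBER 57.4, 61.3, 120 and 125 CPM. The lines did not overlap, but the gap was wide with siFOXA1.1 and narrow with siFOXA1.2. ELF3 was higher in RT112 by 1.38 over both siRNAs (SE 0.34, adjusted p = 0.0103), by 2.39 with siFOXA1.1 (adjusted p = 3.13e-06), and the difference with siFOXA1.2 was 0.44 (adjusted p = 0.143). The line difference differed between the siRNAs by 1.94 (adjusted p = 0.0117), 1 of 79 genes of 14051 (0.562%) for which it did (147 with the replicate block). No other luminal factor was among those 79.

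The uroplakins and other luminal markers also stayed higher in RT112. Of 30 genes 21 were tested, 18 of them were higher in RT112 and 0 lower, and the median difference was 5.61. Setting the 5 markers with 3 counts or fewer in every SCaBER library to their bound gave 4.52. With control siRNA 22 of 23 tested markers were higher, with a median of 6.08. The 9 markers not tested had at most 50 counts in any of the 8 siFOXA1 libraries. The highest of them was TFF1, a trefoil peptide, at 0.589 to 7.32 CPM in RT112 after FOXA1 siRNA and 45.1 to 81.7 CPM with control siRNA, against 0.145 CPM at most in SCaBER, and the change of its line difference did not pass with siFOXA1.1 (adjusted p = 0.354) or siFOXA1.2 (adjusted p = 1.00). A marker that is near 0 in 1 line passes the filter through the other line, so the count describes the tested markers and not the list. KRT7, a simple keratin of luminal cells, had 1024, 1031, 1454 and 1391 CPM in RT112 and 8.33, 14.9, 14.5 and 12.2 CPM in SCaBER. The lines were 101-fold apart (log2 6.65, SE 0.26, adjusted p = 1.41e-07). KRT19, another simple keratin, had 1990 to 2744 CPM in RT112 and 0 to 2.54 CPM in SCaBER (log2 10.58, SE 0.58).

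Among the uroplakins, UPK1B had 910, 734, 578 and 678 CPM in RT112 and 3 counts in all over the 4 SCaBER libraries, a ratio of 6030 with an exact 95% interval of 2063 to 29240 that covers counting error only. UPK2 was 21.3-fold higher in RT112 (log2 4.41, SE 0.42, adjusted p = 2.58e-05). UPK1A, at 0 counts in SCaBER, was at least 10.9-fold higher. UPK3B had 7.62 and 7.22 CPM in RT112 with siFOXA1.1, 64.7 and 61.2 CPM with siFOXA1.2, and 0 to 2.31 CPM in SCaBER. The 2 siRNAs gave separate levels in RT112, both above SCaBER (log2 5.61, SE 1.14, adjusted p = 0.00328), and the test of a difference between the siRNAs gave an adjusted p of 0.967.

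FABP4, a fatty acid carrier and PPARG target, showed the same order in RT112, with 56.1 and 60.1 CPM under siFOXA1.1 and 396 and 523 CPM under siFOXA1.2. It was at 0 counts in all 4 SCaBER libraries. Its RT112 mean of 258.9 ± 238 CPM (SD, n = 4) was at least 534-fold above the floor, and the siFOXA1.2 libraries carry most of that mean. FGFR3, a receptor kinase often active in luminal papillary tumours, had 49.1, 15.3, 119 and 100 CPM in RT112 and 0 to 3.03 CPM in SCaBER (log2 5.65, SE 0.84, adjusted p = 0.000478). VGLL1, a TEAD cofactor, and CYP2J2, a cytochrome P450, were at 0 counts in SCaBER and at least 260-fold and at least 23-fold higher in RT112. HPGD (6.67, SE 0.98), AGR2 (6.01, SE 1.22), GPX2 (3.85, SE 0.56) and ADIRF (2.27, SE 0.28) were higher in RT112 as well. So were the receptors ERBB2 (1.75, SE 0.33) and ERBB3 (1.24, SE 0.27) and the keratin KRT8 (0.87, SE 0.20, adjusted p = 0.00725). KRT18, the partner of KRT8, had 665 to 1040 CPM in RT112 and 402 to 824 CPM in SCaBER and did not pass the test (0.49, SE 0.25, adjusted p = 0.183).

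PSCA, a surface antigen of differentiated urothelium, was the 1 luminal marker whose change of the line difference passed its test, with siFOXA1.1 only. After FOXA1 siRNA it had 16.1 to 35.1 CPM in RT112 and 0 to 2.02 CPM in SCaBER (4.94, SE 0.88, adjusted p = 0.00143). With control siRNA the difference was 8.87, and with siFOXA1.1 it was smaller than that by 6.33 on the log2 scale (a change of -6.33, adjusted p = 0.0193, from the fit of all 16 libraries). With siFOXA1.2 the change was -4.65 (adjusted p = 0.69). The few counts in SCaBER, 0 in some libraries, enter both PSCA values. Not passing does not show that the other markers kept their difference. Of 23 markers tested 16 changes with siFOXA1.1 were negative and 7 positive. UPK3B was 319-fold higher in RT112 with control siRNA and 30.9-fold with siFOXA1.1, and its change did not pass.

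**Figure D3:**
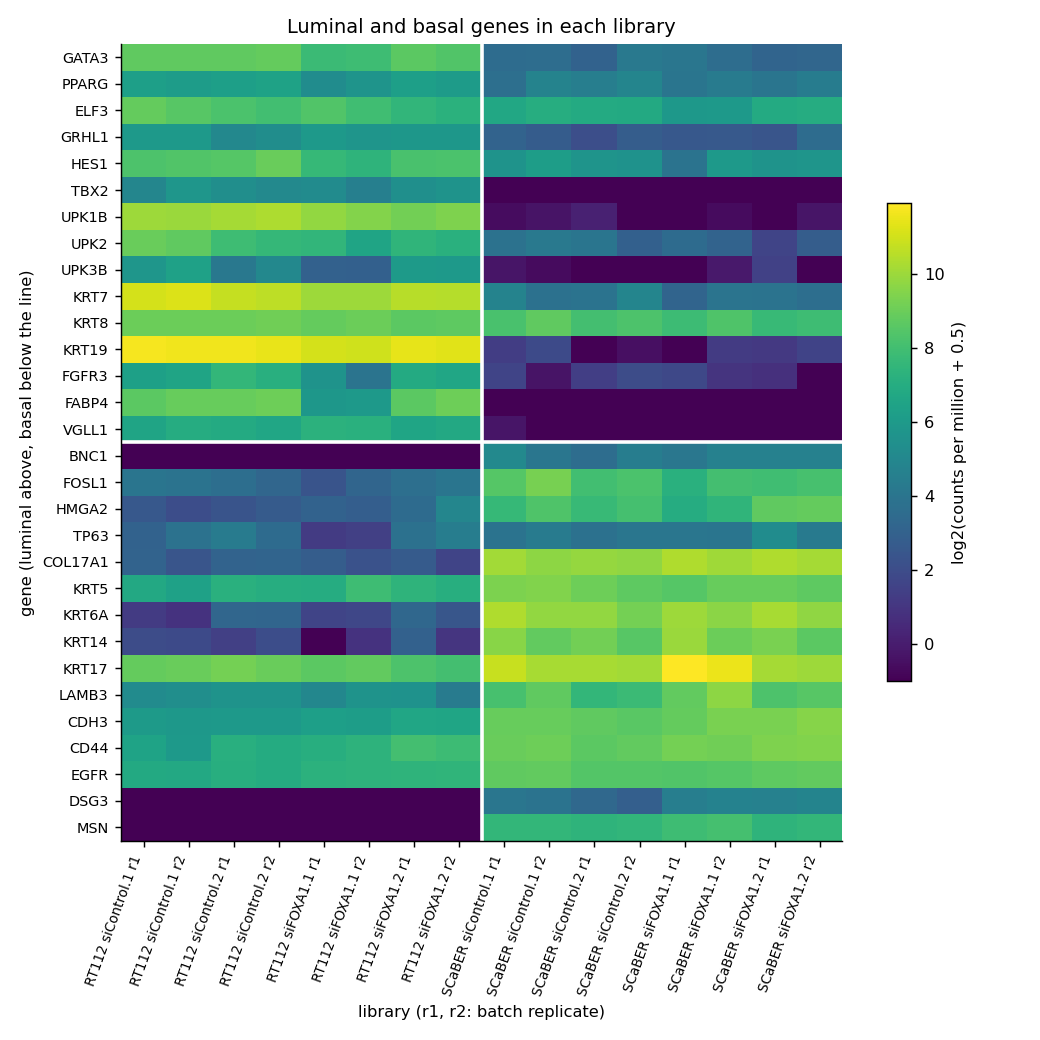
Levels of 15 luminal genes (above the line) and 15 basal genes (below it) in each of the 16 libraries as log2(CPM + 0.5), RT112 on the left and SCaBER on the right. In the siFOXA1 columns GATA3 stayed at 219 to 397 CPM in RT112 and at 8.48 to 16.1 CPM in SCaBER, and COL17A1 at 2.59 to 6.44 and 1063 to 1313 CPM.

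The promoters of the luminal and basal genes were read for the letters that forkhead factors prefer, TGTTTNC, on both strands, in windows from 250 bases before to 50 bases after the gene start (RefSeq sequence, GRCh38.p14). Of 27305 promoters 18.1% held at least 1 match. Matches were found in 1 of 12 promoters of luminal factors, 5 of 18 of luminal markers (27.8%), 1 of 6 of basal factors and 2 of 18 of basal markers (11.1%), for the members with a window. AGATAA, the letters of GATA factors, were in 10.5% of all promoters and in 2 of 12, 2 of 18, 0 of 6 and 3 of 18 of those lists. TGANTCA, the letters of AP-1, were in 7.76% of all promoters and in 0 of 12, 1 of 18, 0 of 6 and 3 of 18. No list is singled out by these counts, and a match is only a run of letters. The promoters of GATA3 and UPK3B, which stayed higher in RT112, and of COL17A1, which stayed higher in SCaBER, are shown because each held a single forkhead match, in capitals. GATA3 is on the plus strand at chr10:8045083-8045382 with its match 138 bases before the gene start, UPK3B on the plus strand at chr7:76510302-76510601 with its match 244 bases before, and COL17A1 on the minus strand at chr10:104085831-104086130 with its match 229 bases before, each written 5′ to 3′ along the gene.
GATA3: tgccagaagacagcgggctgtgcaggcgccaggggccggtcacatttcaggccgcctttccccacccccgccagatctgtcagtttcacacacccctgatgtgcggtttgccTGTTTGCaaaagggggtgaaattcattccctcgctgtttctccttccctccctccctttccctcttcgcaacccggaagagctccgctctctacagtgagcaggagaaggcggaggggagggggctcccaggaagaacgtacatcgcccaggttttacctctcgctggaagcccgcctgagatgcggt
UPK3B: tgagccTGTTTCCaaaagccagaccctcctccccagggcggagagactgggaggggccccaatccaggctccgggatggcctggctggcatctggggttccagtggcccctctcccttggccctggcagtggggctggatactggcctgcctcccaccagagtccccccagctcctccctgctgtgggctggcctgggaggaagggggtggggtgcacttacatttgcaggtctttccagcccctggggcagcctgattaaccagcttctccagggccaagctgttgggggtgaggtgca
COL17A1: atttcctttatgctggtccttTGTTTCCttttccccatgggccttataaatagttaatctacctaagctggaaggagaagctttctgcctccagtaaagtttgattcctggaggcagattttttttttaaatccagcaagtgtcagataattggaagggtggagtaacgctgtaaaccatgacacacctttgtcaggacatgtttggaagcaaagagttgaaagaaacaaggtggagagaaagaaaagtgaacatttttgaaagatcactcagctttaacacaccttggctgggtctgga

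Most of the basal transcription factors tested were lower in RT112, with 5 of 7 lower, 0 higher and a median of -1.39. With control siRNA it was also 5 of 7 (median -1.50). FOSL1, an AP-1 subunit of basal and mesenchymal cells, had 4.54, 8.69, 12.5 and 15.7 CPM in RT112 and 146, 266, 242 and 284 CPM in SCaBER. The lines did not overlap, and SCaBER was 22.0-fold higher (log2 -4.46, SE 0.38, adjusted p = 1.22e-05). HMGA2, a chromatin protein of embryonic and tumour cells, was 21.1-fold higher in SCaBER (-4.40, SE 0.58, adjusted p = 0.00023). BNC1, a zinc finger factor of stratified epithelium, had 16.7 to 25 CPM in SCaBER and 0 counts in RT112, at least 53.1-fold higher in SCaBER. ZBED2, a repressor studied in squamous keratinocytes, had 6.63 to 14.4 CPM in RT112 and 20 to 36.1 CPM in SCaBER (-1.39, SE 0.34, adjusted p = 0.00941). NR3C1, the glucocorticoid receptor, was 1.88-fold higher in SCaBER (-0.91, SE 0.21, adjusted p = 0.00817). KLF7 went the other way and did not pass the test (0.31, adjusted p = 0.406). With control siRNA its levels in the lines were 1.01-fold apart. BNC2 had 38 counts at most and was not tested.

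TP63, the master factor of basal epithelium, had separate levels by siRNA in RT112. It had 1.9 and 2.21 CPM in RT112 with siFOXA1.1 and 13.4 and 21.4 CPM with siFOXA1.2. In SCaBER it had 16.3, 15.5, 38.4 and 19.5 CPM. The lines overlapped over both siRNAs, and the pooled difference was -1.19 (SE 0.69, adjusted p = 0.233). With siFOXA1.1 TP63 was lower in RT112 by 2.83 (log2 -2.83, adjusted p = 0.00166), with siFOXA1.2 the difference was -0.72 (adjusted p = 0.305) and with control siRNA -0.26 (adjusted p = 0.558). The change from control to siFOXA1.1 was -2.57 (adjusted p = 0.0325), and the difference between the 2 FOXA1 siRNAs did not pass its test (-2.10, adjusted p = 0.261).

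Of 8 other AP-1 subunits tested, 2 were higher in RT112 (25%, against 13% of all genes tested), 0 were lower (against 14.9%) and the median was 0.29. FOS, an immediate early gene, was higher in RT112 by 4.65 (SE 1.01, adjusted p = 0.00469) at 3.08 to 19 CPM against 0 to 0.951 CPM. FOSL2 was higher by 1.02 (SE 0.32, adjusted p = 0.0334). JUNB had 70.6 to 114 CPM in RT112 and 132 to 174 CPM in SCaBER and did not pass the test (-0.54, SE 0.20, adjusted p = 0.0653).

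The basal markers stayed higher in SCaBER. Of 27 genes 26 were tested, 21 were lower in RT112, 0 were higher and the median was -3.67. The 6 markers with 3 counts or fewer in every RT112 library passed the filter through SCaBER. With control siRNA 23 of 26 were lower, 1 was higher and the median was -3.04. COL17A1, the collagen of hemidesmosomes, had 6.44, 4.27, 6.12 and 2.59 CPM in RT112 and 1313, 1063, 1298 and 1161 CPM in SCaBER. The lines were 240.5-fold apart (log2 -7.91, SE 0.33, adjusted p = 1.41e-07), against 126-fold with control siRNA. The laminin chains LAMB3 and LAMA3 followed, LAMB3 at -3.70 (SE 0.39) and LAMA3 at -3.64 (SE 0.33). Neither overlapped between the lines.

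Among the stratified keratins, KRT14 had 0, 1.33, 7.58 and 1.5 CPM in RT112 and 987, 506, 625 and 406 CPM in SCaBER (-7.90, SE 0.86, adjusted p = 6.65e-05). KRT6A was 190.3-fold higher in SCaBER (-7.57, SE 0.43, adjusted p = 1.3e-06). KRT6B, at 0 counts in RT112, was at least 679-fold higher in SCaBER. KRT5, the partner of KRT14, had 126, 234, 168 and 136 CPM in RT112 and 359, 481, 477 and 409 CPM in SCaBER. It was 2.49-fold higher in SCaBER (-1.32, SE 0.24, adjusted p = 0.0016), and its difference with control siRNA had been 4.88-fold. With siFOXA1.1 that change passed the test (1.17, adjusted p = 0.0357), and with siFOXA1.2 it did not (0.75, adjusted p = 0.743). KRT16 had 27.6 to 57.1 CPM in RT112 and 14.6 to 55.1 CPM in SCaBER and did not differ past the threshold (0.49, SE 0.41, adjusted p = 0.424). Reads of KRT6A, KRT6B and KRT6C, of KRT14, KRT16 and KRT17, of SERPINB3 and SERPINB4, of CXCL1 and CXCL3 and of IFITM2, MT1E and GOLGA8A can be shared with near-identical copies, which leaves their split uncertain.

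KRT17 moved the other way from KRT5. RT112 had 395, 441, 309 and 265 CPM and SCaBER 3821, 2962, 1159 and 1033 CPM. SCaBER was higher throughout, with its highest pair of libraries under siFOXA1.1. The difference was -2.62 over both siRNAs (SE 0.42, adjusted p = 0.000861), -2.91 with siFOXA1.1, -1.93 with siFOXA1.2 and -1.39 with control siRNA. The change from control was -1.55 with siFOXA1.1 (adjusted p = 0.000713) and -0.55 with siFOXA1.2 (adjusted p = 0.78). DSC3, a desmosomal cadherin, had 3.66 and 4.86 CPM in RT112 with siFOXA1.1, 37.9 and 43.6 CPM with siFOXA1.2 and 64.8 to 84.7 CPM in SCaBER. The lines did not overlap but the pooled test was not passed (-1.69, SE 0.65, adjusted p = 0.0772), while the difference was -3.93 with siFOXA1.1 (adjusted p = 2.03e-06) and -0.87 with siFOXA1.2 (adjusted p = 0.0457), and it differed between the siRNAs (-3.06, adjusted p = 0.00966). The change from control passed with siFOXA1.1 (-2.03, adjusted p = 0.00435). The desmosomal cadherin DSG3 was at 0 counts in RT112 and at least 59.1-fold higher in SCaBER.

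Of the cell surface and matrix receptors, EGFR had 153, 161, 166 and 173 CPM in RT112 and 340, 363, 410 and 452 CPM in SCaBER. Its libraries lay close together within each line, and SCaBER was 2.32-fold higher (-1.21, SE 0.17, adjusted p = 0.00031). CD44, the hyaluronan receptor, differed by -1.63 (SE 0.22), the receptor kinase MET by -1.31 (SE 0.28), the oncostatin receptor OSMR by -2.49 (SE 0.52) and P-cadherin, CDH3, by -2.80 (SE 0.20). IL7R, the interleukin-7 receptor, had 0 to 4.25 CPM in RT112 and 187 to 589 CPM in SCaBER (-7.90, SE 0.98). The calcium-binding protein S100A2 was 13.1-fold higher in SCaBER (-3.71, SE 0.22). The cytoskeletal linker MSN, podoplanin (PDPN) and the serpins SERPINB3 and SERPINB4 were at 0 counts in RT112 and at least 502-fold, 40.9-fold, 37.6-fold and 21.6-fold higher in SCaBER.

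The integrin chains of the hemidesmosome and ANXA1 did not pass the test of the line difference. ITGB4 differed by -0.64 (SE 0.27, adjusted p = 0.103), ITGA6 by -0.39 (SE 0.24, adjusted p = 0.258) and ANXA1, a phospholipid-binding protein, by -0.50 (SE 0.19, adjusted p = 0.0698). The line difference of ITGB4 changed from control with siFOXA1.1 (-1.02, adjusted p = 0.0413), away from RT112. That of ANXA1 changed towards RT112 (0.99, adjusted p = 0.0281), from -1.50 with control siRNA. Over the 27 basal markers 2 positive changes passed the test with siFOXA1.1, KRT5 and ANXA1, and 3 negative ones, KRT17, DSC3 and ITGB4. Of all 15464 genes 2.59% passed in either direction (160 positive and 240 negative). With siFOXA1.2 no basal or luminal gene of the 4 lists passed the test of a change, and 7 of 15464 genes did (0.0453%). These counts rest on few libraries: the 400 genes were 994 without SCaBER siFOXA1.1 batch replicate 2 and 680 without SCaBER siControl.1 batch replicate 1, and the 7 were 9 to 47 without any 1 of the libraries.

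The differences were also tested within each siRNA, with 2 libraries per group and a spread shared by the 4 groups. With siFOXA1.1 3832 of 14051 genes (27.3%) differed between the lines and with siFOXA1.2 3334 (23.7%). RT112 was higher for 12.1% and lower for 15.1% with siFOXA1.1, and for 10.8% and 12.9% with siFOXA1.2. With siFOXA1.1 9 of 15 luminal factors and 19 of 23 luminal markers were higher in RT112, and 5 of 8 basal factors and 24 of 26 basal markers were lower. With siFOXA1.2 the numbers were 9 of 15, 18 of 23, 5 of 8 and 22 of 26. The medians of the luminal markers were 4.12 and 6.11, and those of the basal markers -3.89 and -3.41. Within batch replicates 1 and 2 taken alone, the medians were 5.31 and 5.63 for the luminal markers and -3.26 and -3.72 for the basal markers.

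**Figure D4:**
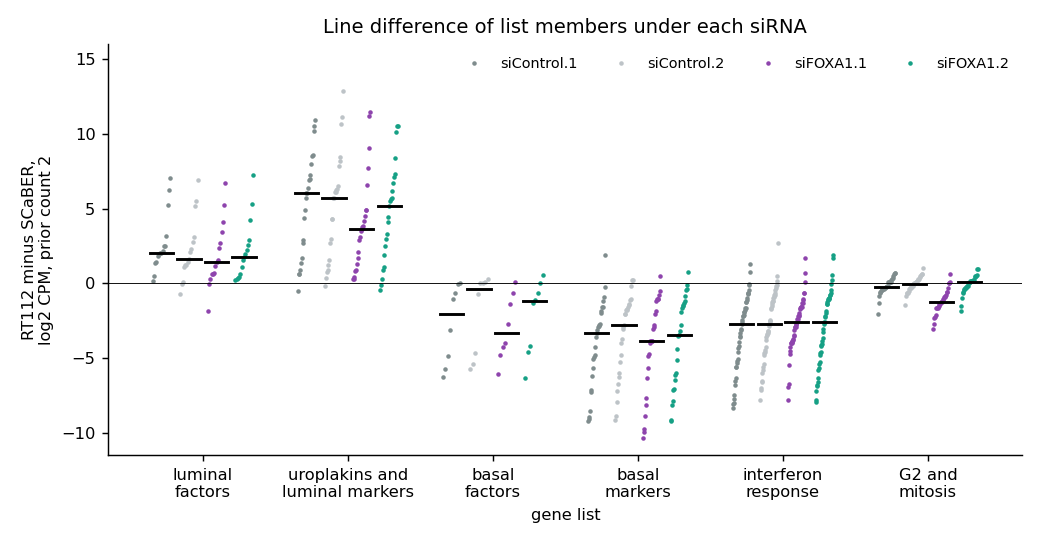
Line difference (RT112 minus SCaBER, log2 CPM with a prior count of 2) of the members of 6 gene lists under each of the 4 siRNAs, 1 point per gene, with the list's median as a bar. The median of the luminal markers was 6.02 and 5.71 under the control siRNAs and 3.62 and 5.15 under siFOXA1.1 and siFOXA1.2, and that of the G2 and mitosis genes was -1.25 under siFOXA1.1 and 0.07 under siFOXA1.2.

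The squamous and cornified envelope genes were split between the lines. Of 20 genes 12 were tested, 7 were higher in RT112, 3 were lower and the median was 1.94, with 0.22 within batch replicate 1 (16 genes) and 2.29 within batch replicate 2 (12 genes). The 8 genes not tested reached up to 428 counts in a siFOXA1 library (KLK5), so these numbers describe the tested genes and not the list. Within each siRNA 18 were tested, with 8 higher and 6 lower in RT112 under either. The medians were then -0.52 with siFOXA1.1 and -0.02 with siFOXA1.2. KRT13, a keratin of non-cornified stratified epithelium and of the urothelium, had 1199, 820, 6349 and 5272 CPM in RT112 and 8.9, 1.88, 8.18 and 3.17 CPM in SCaBER. The lines were 621-fold apart (log2 9.28, SE 0.88, adjusted p = 2.57e-05). KRT4, its partner, had 120 to 556 CPM in RT112 and 1 count in all in SCaBER, a ratio of 7977 with an exact 95% interval of 1431 to 315100. SPRR3, a cornified envelope protein (5.21, SE 0.96), involucrin, IVL (4.75, SE 0.52), and S100A9, an inflammatory calcium-binding protein (3.26, SE 0.40), were also higher in RT112. The 3 lower in RT112 were SPRR2D, at 0 counts in RT112 and at least 27.6-fold higher in SCaBER, SPRR1B (-4.77, SE 0.56) and LCN2, lipocalin-2 (-2.29, SE 0.62, adjusted p = 0.0175). The transglutaminase TGM1 (-1.37, SE 1.12, adjusted p = 0.404) and cystatin A, CSTA (-0.73, SE 0.47, adjusted p = 0.287), did not pass. The difference of CSTA changed from control with siFOXA1.1 (-1.90, adjusted p = 0.0231).

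Among the epithelial junction genes 3 of 16 tested were higher in RT112 and 4 lower, with a median of 0.30. These were 18.8% and 25%, near the 13% and 14.9% of all genes tested. With control siRNA 7 and 3 of 17 were called (41.2% and 17.6%, against 21.2% and 22.2%). The tight junction genes TJP3 (3.83, SE 0.77) and CLDN4 (2.24, SE 0.43) and the trafficking GTPase RAB25 (1.00, SE 0.29, adjusted p = 0.0239) were higher in RT112. CLDN4 stood apart by siRNA in RT112, at 863 and 910 CPM with siFOXA1.1 and 285 and 370 CPM with siFOXA1.2. The desmosomal genes PKP3 (-2.29, SE 0.26) and DSP (-1.72, SE 0.32) and the tight junction genes TJP1 (-1.75, SE 0.34) and CLDN1 (-0.73, SE 0.23, adjusted p = 0.0336) were lower in RT112. DSP had 140, 116, 343 and 322 CPM in RT112 and 633 to 848 CPM in SCaBER, and its difference changed from control with siFOXA1.1 (-1.66, adjusted p = 0.00116). That of TJP1 changed the other way (1.39, adjusted p = 0.0219). E-cadherin, CDH1, had 203 to 507 CPM in RT112 and 314 to 595 CPM in SCaBER (-0.14, SE 0.34, adjusted p = 0.806).

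Mesenchymal genes were lower in RT112 for 9 of 17 tested and higher for 0, with a median of -1.64, and for 11 and 1 of 17 with control siRNA. Vimentin, the defining intermediate filament, had 13 counts at most in any of the 8 siFOXA1 libraries and was not tested. AXL, a receptor kinase, had 4.39, 8.99, 9.03 and 16.7 CPM in RT112 and 505, 421, 679 and 1018 CPM in SCaBER, a 65.1-fold difference (-6.03, SE 0.45, adjusted p = 6.43e-06). N-cadherin, CDH2 (-6.46, SE 0.98), the lysyl oxidase LOXL2 (-6.54, SE 0.62) and the protease inhibitor SERPINE2 (-6.79, SE 0.96) were lower in RT112 too, each near 0 there. TWIST1 was at 0 counts in RT112 and at least 11.7-fold higher in SCaBER. SNAI2, the factor Slug, did not pass (-0.60, SE 0.30, adjusted p = 0.166). Fibronectin, FN1, had 58.9, 70.6, 159 and 151 CPM in RT112 and 111, 101, 47.5 and 28.2 CPM in SCaBER. Its order between the lines was opposite with the 2 siRNAs, at -0.60 with siFOXA1.1 (adjusted p = 0.119) and 2.04 with siFOXA1.2 (adjusted p = 0.000117), and the siRNAs differed (-2.63, adjusted p = 0.00996).

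The EGF receptor ligands were lower in RT112 for 4 of 6 tested and higher for 0, and ligands at 0 counts in RT112 passed the filter through SCaBER. Epiregulin, EREG, and neuregulin, NRG1, were at 0 counts in RT112 and at least 534-fold and 92.1-fold higher in SCaBER. Amphiregulin, AREG, had 27.2, 21.2, 15.4 and 18.8 CPM in RT112 and 134, 199, 282 and 261 CPM in SCaBER, a 10.2-fold difference (-3.35, SE 0.30, adjusted p = 1.76e-05). The difference of AREG was smaller with siFOXA1.1 than with control siRNA (2.02, adjusted p = 0.00116). HBEGF differed by -2.24 (SE 0.31, adjusted p = 0.000304). TGFA (-0.54, SE 0.55, adjusted p = 0.51) and BTC (-3.41, SE 1.39, adjusted p = 0.09) did not pass.

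Of the inflammatory cytokines 9 of 19 were tested and 8 were lower in RT112, against 14.9% of all genes tested. Cytokines at 0 counts in RT112 passed the filter through SCaBER, so the count describes the tested cytokines and not the list. The neutrophil chemokine CXCL1 had 97.9, 129, 246 and 214 CPM in SCaBER and 0 counts in RT112, at least 397-fold higher in SCaBER. IL24, IL6 and CXCL3 were likewise at 0 counts in RT112 and at least 63.9-fold, 15.1-fold and 9.79-fold higher in SCaBER. IL1A, interleukin-1 alpha, had 1.89 to 12.6 CPM in RT112 and 38.6 to 68.8 CPM in SCaBER (-3.35, SE 0.55, adjusted p = 0.00094). The receptor antagonist IL1RN did not pass (0.87, SE 0.48, adjusted p = 0.208).

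The line difference of several interferon response genes depended on the siRNA. Over both siRNAs 24 of 41 tested were lower in RT112 and 0 higher, with a median of -2.40, against 34 lower and 1 higher of 41 with control siRNA. With siFOXA1.1 39 of 43 were lower and 0 higher, and with siFOXA1.2 31 were lower and 2 higher. The line difference differed between the 2 siRNAs for 9 of 43, 6 positive and 3 negative, against 0.562% of all genes. It changed from control to siFOXA1.1 for 13 of 45, 9 positive and 4 negative, against 2.59%, and to siFOXA1.2 for 0 of 45.

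CXCL11, a T cell chemokine, was 216-fold higher in SCaBER (-7.76, SE 0.86, adjusted p = 6.92e-05), and OASL (-7.21, SE 0.87), IFITM2 (-5.70) and HERC5 (-4.89, SE 0.70) were higher there with both siRNAs. MX1, an antiviral GTPase, had 2.49, 11.6, 8.45 and 0.956 CPM in RT112 and 653, 845, 35.9 and 47.5 CPM in SCaBER. SCaBER was higher with both siRNAs (-6.01 over both, SE 1.17, adjusted p = 0.00258), and the difference was larger with siFOXA1.1 than with control siRNA (-2.85, adjusted p = 0.0293). IFI44L had 73.8, 83.4, 0 and 0.137 CPM in RT112 and 219, 342, 19.1 and 17.3 CPM in SCaBER. Levels with siFOXA1.1 were above those with siFOXA1.2 in both lines, RT112 with siFOXA1.1 lay above SCaBER with siFOXA1.2, and the pooled difference did not pass (-1.83, SE 1.44, adjusted p = 0.386). Within siFOXA1.1 it was -1.72 (adjusted p = 0.000317) and within siFOXA1.2 -7.66 (adjusted p = 5.38e-07), and the 2 differed (5.94, adjusted p = 0.0064).

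RSAD2, viperin, had 26.1 and 38.5 CPM in RT112 with siFOXA1.1 and 0 with siFOXA1.2, and 219, 315, 26.5 and 44 CPM in SCaBER. Its line difference was -2.93 with siFOXA1.1 (adjusted p = 2.81e-05), where SCaBER was 7.60-fold higher. With siFOXA1.2 both RT112 libraries were at 0 counts, and the siRNAs differed (adjusted p = 0.00966). IFI27 had 62.4, 17.1, 0 and 0 CPM in RT112 and 56.8, 421, 36.4 and 35 CPM in SCaBER, with a pooled difference of -2.70 (SE 1.41, adjusted p = 0.186). OAS1, a sensor of double-stranded RNA, had 82.3, 66.6, 47.1 and 39.9 CPM in RT112 and 85.4, 188, 11 and 16.2 CPM in SCaBER. RT112 was higher with siFOXA1.2 (1.69, adjusted p = 0.00311), as with control siRNA (1.81, adjusted p = 0.000363), whereas with siFOXA1.1 the difference was -0.76 (adjusted p = 0.104), a change from control of -2.74 (adjusted p = 0.000595). STAT2, a signal transducer of interferon, did not pass over both siRNAs (-1.32, SE 0.62, adjusted p = 0.142) and was lower in RT112 with siFOXA1.1 (-1.40, adjusted p = 0.0131). The checkpoint ligand CD274 had 24, 26.1, 0 and 3.14 CPM in RT112 and 19.1, 34.7, 5.86 and 6.18 CPM in SCaBER, and the lines did not differ past the threshold (-0.22, SE 1.06, adjusted p = 0.906).

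**Figure D5:**
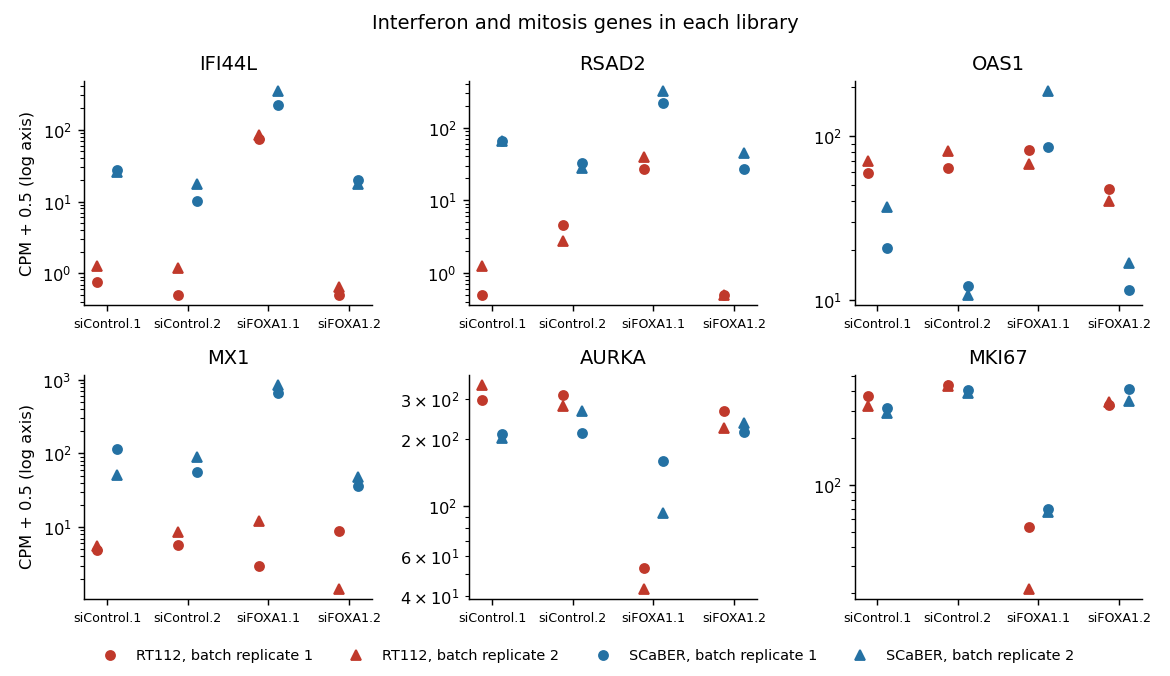
Levels of 4 interferon genes and 2 mitosis genes in each of the 16 libraries as CPM + 0.5 on a log axis, by siRNA, cell line (colour) and batch replicate (shape). IFI44L reached 73.8 to 83.4 CPM in RT112 and 219 to 342 CPM in SCaBER with siFOXA1.1, and AURKA lay at 42.4 to 52.4 CPM in RT112 with siFOXA1.1 and at 223 to 264 CPM with siFOXA1.2.

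Few proliferation genes were called between the lines over both siRNAs. That fit counts the difference between siRNAs as spread, so few calls do not show that the lines were alike. Of 28 G2 and mitosis genes 1 was lower in RT112 (3.57%) and 0 higher (median -0.25). Of 25 S phase genes 2 were lower and 2 higher (8% each, median -0.16). Over all genes tested 14.9% were lower and 13% higher. Of the S phase genes 8 were lower and 1 higher with siFOXA1.1 (32% and 4%), and 3 and 4 with siFOXA1.2 (12% and 16%). With control siRNA 7 were lower and 5 higher (28% and 20%). ANLN, anillin, was the 1 mitosis gene called (-1.98, SE 0.38, adjusted p = 0.00255). The S phase genes called were the helicase MCM6 (-1.47, SE 0.40), the reductase RRM1 (-1.07, SE 0.29), the single-strand binding protein RPA2 (0.80, SE 0.25, adjusted p = 0.0525 with the replicate block) and the histone mRNA binder SLBP (1.45, SE 0.42), and PCNA did not pass (0.63, SE 0.41, adjusted p = 0.286). With siFOXA1.1 alone 15 of 28 mitosis genes were lower in RT112 (median -1.17), against 15.1% of all genes tested. With siFOXA1.2 3 were lower and 1 higher (median 0.09), or 10.7% and 3.57%, against 12.9% and 10.8% of all genes tested. With control siRNA 8 were lower and 5 higher, against 22.2% and 21.2%. The line difference of 11 of 28 changed from control to siFOXA1.1, all 11 negative, with a median change of -1.07, against 1.55% of all genes with a negative change. No member of the list passed the test of a difference between the 2 FOXA1 siRNAs.

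AURKA, a mitotic kinase, had 52.4, 42.4, 264 and 223 CPM in RT112 and 158, 93.1, 214 and 233 CPM in SCaBER. In each line both siFOXA1.1 libraries lay below both siFOXA1.2 libraries, and the change of the line difference from control was -1.82 with siFOXA1.1 (adjusted p = 0.000825). MKI67, the Ki-67 antigen, had 52.9, 20.9, 327 and 342 CPM in RT112 and 69.1, 66.7, 415 and 348 CPM in SCaBER. Its 2 levels in each line followed the siRNA, and the lines did not differ past the threshold (-0.26, SE 0.81, adjusted p = 0.849). The siFOXA1.1 libraries of RT112 were also those with the highest mitochondrial share, at 25.7% and 28.2% against 19.7% and 20.4% with siFOXA1.2, and the part of that share in these values was not tested.

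Of the PPARG targets and lipid genes 8 of 14 were tested, 2 were higher and 3 lower in RT112 (25% and 37.5%, against 13% and 14.9% of all genes tested). The acyl-CoA synthetase ACSL5 was among those higher (2.34, SE 0.36). The fatty acid carrier FABP5 (-4.97, SE 0.74), the carnitine transferase CPT1A (-2.10, SE 0.27) and ANGPTL4, at 0 counts in RT112 and at least 27.5-fold higher in SCaBER, were lower. ANGPTL4 averaged 11.9 ± 9.85 CPM (SD, n = 4) in SCaBER. ACSL1 did not pass (1.49, SE 0.53, adjusted p = 0.0591).

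Outside the lists, the largest differences among genes with a mean of at least 20 counts, no overlap of the lines and more than 3 counts in at least 1 library of each line were found for PEG10, MGST1, S100P, CMTM7, VTCN1, DHRS2, SLCO4A1 and SYNGR1 on the RT112 side, at 7.53 to 10.19 on the log2 scale, beside KRT19 and KRT13. PEG10, a retrotransposon-derived gene, had 132, 130, 547 and 742 CPM in RT112 and 0 to 1.01 CPM in SCaBER (10.19, SE 0.96), and its difference was smaller with siFOXA1.1 than with control siRNA (-6.55, adjusted p = 0.0133). S100P, a calcium-binding protein, had 309, 254, 738 and 766 CPM in RT112 and 0 to 3.96 CPM in SCaBER (8.37, SE 0.79). MGST1, a glutathione transferase, had 167 to 241 CPM in RT112 and 0 to 0.578 CPM in SCaBER (9.22, SE 0.49). On the SCaBER side they were LCP1, FST, SLC15A3, TUBB6, NEXN, SERPINB1 and SLC16A1, at -9.25 to -7.77, beside COL17A1, IL7R and KRT14. For LCP1, NEXN and SERPINB1 in RT112 and VTCN1 in SCaBER 1 library held all counts of the lower line, which leaves these sizes uncertain. SLC16A1, a lactate transporter, had 0 to 6.28 CPM in RT112 and 449 to 510 CPM in SCaBER (-7.77, SE 0.94), and FST, follistatin, 0 to 1.37 and 169 to 376 CPM (-8.64, SE 0.66). Genes at 3 counts or fewer in every library of the other line included BCAS1, at least 268-fold higher in RT112, METTL7A, with 1 count in SCaBER and a ratio of 3466 (exact 95% interval 621.7 to 136900), MT1E, at least 662-fold higher in SCaBER, and MAP1B, with 2 counts in RT112 and a ratio of 3389 (exact 95% interval 937.8 to 27990).

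Large changes of the line difference from control were taken among genes with a mean of at least 20 counts. KRT81, a hair keratin, had 152, 166, 0.437 and 0.137 CPM in RT112 and 1323, 983, 1132 and 1213 CPM in SCaBER. SCaBER stayed high with both siRNAs, and RT112 had separate levels with each. The change from control was 5.27 with siFOXA1.1 (adjusted p = 1.41e-08) and -3.88 with siFOXA1.2 (adjusted p = 0.012), opposite directions. Both RT112 libraries with siFOXA1.2 lay at or under the floor of 3 counts, so the size of the second change is uncertain. The 7 genes changed with siFOXA1.2 were KRT81, STARD4 (7.22), MAP2 (4.53), BASP1 (1.50), GOLGA8A (-5.45), LNCAROD (-6.80) and CAMK2D (-7.77), with adjusted p of 0.00539 to 0.0418. STARD4, a sterol carrier, MAP2, a microtubule protein, and GOLGA8A changed in the same direction with siFOXA1.1 (5.94, 6.00 and -5.14). MAP2 had 83.2, 112, 3.79 and 5.46 CPM in RT112 and 71.8, 88.5, 9.1 and 10.8 CPM in SCaBER, levels that followed the siRNA in both lines, while it was lower in RT112 with control siRNA (-4.45, adjusted p = 0.000102). Among the largest changes with siFOXA1.1 were those of GPNMB (9.65), IFI27 (9.15), BAIAP2L2 (7.61) and SPRY1 (7.52) on the positive side and of TMEM105 (-9.62), RFXAP (-8.80), FHL3 (-8.21), B3GNT7 (-8.04) and SEMA5A (-7.62) on the negative side. For STARD4, GOLGA8A, LNCAROD, CAMK2D, BAIAP2L2, IFI27, TMEM105, RFXAP, FHL3, B3GNT7, SEMA5A, PSCA and PEG10 at least 1 pair of libraries in the test was at 0 counts, so the size of their change depends on the count added before taking logs. SEMA5A, a guidance cue, had 7.62, 6.78, 80 and 91.8 CPM in RT112 and 0 to 2.84 CPM in SCaBER, and it remained higher in RT112 (5.51, SE 1.13, adjusted p = 0.00353).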

How the data were processed

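RNA of RT112 and SCaBER cells was sequenced with a 3′ mRNA kit after transfection with 10 nM siRNA per the labels (the study's methods give 10 ng). The authors trimmed reads with TrimGalore 0.6.2 (minimum quality 20, minimum length 10) and deposited raw counts per gene, aligned and counted with STAR 2.6.1a on hg38 and GENCODE 29 per the labels, whereas the methods name hg19. The authors also deposited TPM, a scale per gene length that 3′ reads do not need, and these values were used for 1 alternative as log2(TPM + 1), a log2 scale computed here from the deposited TPM of genes with a mean of at least 1.

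Counts of the 8 siFOXA1 libraries were fitted by quasi-likelihood (edgeR 4.0.16, R 4.3.3, with filterByExpr and TMM factors, Benjamini-Hochberg adjustment over all genes tested and a threshold of 0.05), RT112 against SCaBER, as were the 8 siControl libraries. Fits with 1 mean per line and siRNA gave the difference within each siRNA and its interaction with the line, and fits of all 16 libraries gave the change of the line difference. CPM are counts per 1000000 of the library total, whereas log2 differences are from the TMM fit. DESeq2 1.42.0, limma 3.58.1 on log2(TPM + 1), other normalizations and filters, an siRNA term, each batch alone and leaving out each library were alternatives, and for the shared differences each batch alone and the replicate block were chosen after seeing the data. Scripts were tested on simulated data. The labels number the libraries by experiment batch, so same-numbered libraries of the lines are paired by batch; their deviations from the group means correlated by -0.00568 to 0.00638 over 15464 genes. Nothing says that the libraries of a group came from separate cultures, so p-values measure the spread between these libraries. The 4 libraries of a line also hold 2 siRNAs, whose difference is part of that spread.

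Members and gene lists were chosen with earlier results of these data known, and part of the lists follows factors named in the study. Genes named were taken from all members of the luminal and basal lists, up to 5 called members in each direction and 3 not called of the other lists, the 10 largest differences in each direction with non-overlapping libraries, a mean of at least 20 counts and more than 3 counts in at least 1 library of each line, the 5 highest in 1 line with 3 counts or fewer in each library of the other, the 5 largest changes in each direction and a few genes the study followed. Some members are not reported here. Floors of 3 counts and intervals cover counting error only, since no molecular identifiers were used.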

Additional observations from a re-analysis of the deposited data

Results flagged for a closer look

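In groups of 4 libraries, 1 library stood far from the other 3 for 23 of 306 groups tested, by the gap to its nearest neighbour as a share of the group's range, above Dixon's 95% critical value. That is 7.52% of the groups, and chance alone marks about 1 in 20. In RT112 after FOXA1 siRNA these were the library total (0.859) and, in CPM, SERPINE2 (1), CDH2 (1), BTC (0.934), IL1A (0.871), ACSL5 (0.867), LCP1 (1), SLC15A3 (0.88), NEXN (1), SERPINB1 (1) and BAIAP2L2 (1). A share of 1 means that the other 3 libraries held the same CPM. In SCaBER after FOXA1 siRNA they were GRHL1 (0.892), HPGD (1), BNC1 (0.995), OSMR (0.848), CLDN4 (0.871), TJP1 (0.885), IFI27 (0.943), PEG10 (0.848), VTCN1 (1), LCP1 (0.891), SLC16A1 (0.9) and SPRY1 (0.886).

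The difference RT112 minus SCaBER differed between the 2 FOXA1 siRNAs at an adjusted p under 0.05 (edgeR, on the log2 scale, siFOXA1.1 minus siFOXA1.2) for named genes in both directions. It was more positive with siFOXA1.1 for ELF3 (1.94), IFI44L (5.94), LNCAROD (7.19), CAMK2D (7.43), RSAD2 (7.89) and KRT81 (9.16), and more negative for FHL3 (-8.29), SEMA5A (-6.91), DSC3 (-3.06), FN1 (-2.63), OAS1 (-2.45) and BASP1 (-1.66).

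Against control siRNA, the line difference was more positive with siFOXA1.1 for ANXA1 (0.99), KRT5 (1.17), TJP1 (1.39), AREG (2.02), RSAD2 (2.37), IFI44L (3.69), KRT81 (5.27), STARD4 (5.94), MAP2 (6.00), SPRY1 (7.52), BAIAP2L2 (7.61), IFI27 (9.15) and GPNMB (9.65). It was more negative for TMEM105 (-9.62), RFXAP (-8.80), FHL3 (-8.21), B3GNT7 (-8.04), SEMA5A (-7.62), PEG10 (-6.55), PSCA (-6.33), GOLGA8A (-5.14), MX1 (-2.85), OAS1 (-2.74), TP63 (-2.57), DSC3 (-2.03), CSTA (-1.90), AURKA (-1.82), FN1 (-1.74), DSP (-1.66), KRT17 (-1.55), ITGB4 (-1.02) and JUNB (-1.002). With siFOXA1.2 it was more positive than with control siRNA for BASP1 (1.50), MAP2 (4.53) and STARD4 (7.22) and more negative for CAMK2D (-7.77), LNCAROD (-6.80), GOLGA8A (-5.45) and KRT81 (-3.88). For genes with a pair of libraries at 0 counts, and for KRT81 with siFOXA1.2, the direction and the test are given and the size depends on the count added before taking logs.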

How the results depend on the processing

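At 5280402 to 7322004 counts per library FOXA1 had 0 to 6 counts in SCaBER, so its ratio is uncertain, and counts of genes called moved with the settings. The 3368 genes called after FOXA1 siRNA became 1185 in batch replicate 1 alone and 794 in batch replicate 2 alone, with 2950 to 3418 when 1 library was left out. Under control siRNA 5341 became 3050 in batch replicate 2 alone and 3557 with a log2 difference of at least 1 (4962 to 5565 without 1 library). The share of control calls kept, 57.3%, was 32.5% and 27.1% in the batches alone. Within siFOXA1.1 leaving out 1 library gave 2784 to 4206 genes and within siFOXA1.2 2296 to 4376. The test between the 2 FOXA1 siRNAs called 79 genes, 250 with DESeq2, 375 without the filter, 8 on log2(TPM + 1) and 147 with the replicate block. Leaving out 1 library gave 71 to 566, with 542 and 566 without SCaBER siFOXA1.1 batch replicates 1 and 2. The pooled change of the line difference gave 0 genes with edgeR (737 at an unadjusted p under 0.05), 21 with DESeq2, 45 without the filter, 2 on log2(TPM + 1), 7 with the siRNA term and 8 with that term and the replicate block. It gave 1 without SCaBER siControl.2 batch replicate 2 or RT112 siFOXA1.1 batch replicate 1 and otherwise 0. The 400 genes changed with siFOXA1.1 were 777 with DESeq2 and 732 without the filter, and 377 to 994 without 1 library, with 680 without SCaBER siControl.1 batch replicate 1 and 994 without SCaBER siFOXA1.1 batch replicate 2. The 7 changed with siFOXA1.2 were 36 with DESeq2, 66 without the filter and 3 on log2(TPM + 1), and 9 to 47 without 1 library. The causes of these shifts were not tested. The replicate block changed no other count by more than 1.5 times.

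The FOXA1 difference of 4.36 was 1.61 on log2(TPM + 1) (limma adjusted p = 0.0522) and 3.81 in batch replicate 2 alone (edgeR adjusted p = 0.118). It was 3.95 to 5.44 without any 1 SCaBER library and 4.71 without RT112 siFOXA1.1 batch replicate 1. Leaving out RT112 siFOXA1.1 batch replicate 2 or either RT112 siFOXA1.2 library gave no value, because FOXA1 then did not pass the filter. In CPM it was 7.08, with 4.23 to 9.12 without 1 library, and the difference in the mitochondrial share was 11.8 percentage points, with 10.2 to 13.1. Without a library the exact permutation test cannot go below 0.0571.

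Of the genes named other than KLF7, 125 were called and 38 were not. None of the 125 reversed under any alternative run. DESeq2 left 124 called (CAMK2D adjusted p = 0.0556), the replicate block 124 (RPA2 adjusted p = 0.0525), log2(TPM + 1) 115, batch replicate 1 alone 93 and batch replicate 2 alone 72. On log2(TPM + 1) ELF3, ERBB3, FOSL2, KRT8, NPAS2, RAB25, RPA2, RXRA and SLBP were lost. The siRNA term kept all 125 and added 19. Leaving out the mitochondrial genes or using library totals lost none. Reversals were among genes not called. In batch replicate 1 alone B3GNT7 was at 0.21, CDH1 at 0.21 and OAS1 at 0.43. MAP2 was at -0.56 on log2(TPM + 1) and at -0.26 with the siRNA term, with and without the replicate block, and OAS1 at 0.40 with that term and 0.47 with the block added. Without 1 library AURKA ranged from -0.69 to 0.050, CD274 from -0.79 to 0.44, CDH1 from -0.36 to 0.12, MAP2 from -0.48 to 0.82, MKI67 from -0.73 to 0.22, OAS1 from -0.65 to 0.69 and RFXAP from -0.86 to 0.20.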
